A study of Mus musculus with 3 samples.

Results

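Effector-like CD8 T cells of the blood were divided by the beta chain V segment of their T cell receptor. The 123 cells whose beta V UMIs (unique molecular identifiers, each standing for 1 captured RNA molecule) were all Trbv13-3 are called Trbv13-3 effectors. The 325 cells whose beta V UMIs all came from other Trbv genes are called other-beta effectors. Both sets were chosen by measured counts: at least 500 genes detected, at most 10% of counts from mitochondrial genes, a UMI for at least 2 of the 6 genes Gzma, Gzmb, Cx3cr1, Klrg1, Zeb2 and S1pr5, and no UMI of Ccr7. They make up 448 of the 2624 blood cells that met this effector rule. Of the rest, 2150 had no beta V UMI and 26 had both kinds. The rule held for 46.4% of the 5652 blood cells kept, and 18920 cells were kept in the whole series.

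The blood library (PBMC) came from C57BL/6 mice with subcutaneous tumours of B16.Gp, which are B16.F10 melanoma cells made to express the glycoprotein of lymphocytic choriomeningitis virus (LCMV). Naive P14 cells, CD44- GFP+ cells of P14 mice with a TCF-1-GFP reporter, were transferred 8 days after the melanoma cells, and cells were collected on day 16 after transfer as CD45.1+ CD44+ CD8 T cells. A library of the tumour-draining lymph node (TdLN) had the same design and gate. A memory library of P14 cells came from day 200 after acute LCMV infection and was gated on CD45.1, CD44 and CD127, among other markers, and without KLRG1, a gate that bears on Klrg1 and Il7r. All libraries are given as wild type. There was 1 library per group, and the number of mice in it and their age are not stated.

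Each T cell receptor chain is assembled from a V segment and shorter segments, so the V segment is a tag of the clone a cell belongs to. P14 mice carry a pre-assembled receptor for an LCMV glycoprotein peptide, with a Trbv13-3 beta chain and an alpha chain of the Trav14 family. Trdc, the constant gene of the delta chain, lies inside the alpha locus and is cut out of a chromosome on which an alpha V segment is joined. Effector CD8 T cells kill through granzymes and perforin and, when terminally differentiated, express Klrg1, Zeb2, Cx3cr1 and S1pr5. Cells with memory potential retain Il7r and Tcf7.

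Because the class of a cell rested on few UMIs, the segments that could be mistaken for each other are shown. The last 120 bases of Trbv13-3 and of its relatives Trbv13-2 and Trbv13-1 are given 5′ to 3′ from the GENCODE M21 transcripts (GRCm38, plus strand), with the bases that differ from Trbv13-3 in capitals. They lie at chr6:41130466-41130585, chr6:41121713-41121832 and chr6:41116349-41116468, in the V exon of each gene.
Trbv13-3: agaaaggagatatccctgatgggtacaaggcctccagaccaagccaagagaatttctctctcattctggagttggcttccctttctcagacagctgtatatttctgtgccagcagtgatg
Trbv13-2: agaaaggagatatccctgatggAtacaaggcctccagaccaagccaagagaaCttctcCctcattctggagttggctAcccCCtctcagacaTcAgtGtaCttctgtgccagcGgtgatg
Trbv13-1: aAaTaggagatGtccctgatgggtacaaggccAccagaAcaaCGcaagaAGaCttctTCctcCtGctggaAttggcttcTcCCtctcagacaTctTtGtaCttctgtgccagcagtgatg
Trbv13-2 differed from Trbv13-3 at 11 of these 120 bases and Trbv13-1 at 22. Over the 340 bases of the whole transcript, Trbv13-2 was 90.6% identical to Trbv13-3. A read confined to a shared stretch would not tell these segments apart, and 46 of the 325 other-beta effectors had a Trbv13-1 or Trbv13-2 UMI.

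Levels are given as CPM, the UMIs of a gene for each 1000000 UMIs summed over the cells of a set, with receptor and immunoglobulin genes left out of the total. The Trbv13-3 effectors summed to 768885 such counts and the other-beta effectors to 1985560. The sets were close in quality: medians of 5527 and 5459 UMIs per cell, 1748 and 1766 genes, and 4.27% and 4.18% mitochondrial counts. Values in parentheses are 95% intervals. They cover counting error only, not differences between cells or mice, and no p-value is given because both sets come from 1 library. As T cells, the sets had Cd8a at 368 and 426 CPM and no UMI of Cd4, which allows up to 3.90 and 1.51 CPM.

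The alpha chain, which the rule did not use, differed between the sets in the direction of the P14 receptor. Of 72 alpha V UMIs in Trbv13-3 effectors, 58.3% (46.1–69.85) belonged to the Trav14 family, against 28.3% (20.7–37.0) of 127 in other-beta effectors. Counted by cell, Trav14-1 was seen in 26 of the 44 Trbv13-3 effectors with an alpha V UMI, followed by Trav16 in 7 and Trav19 in 4. In other-beta effectors Trav14-1 and Trav16 were each seen in 22 of 92 such cells, Trav19 in 10 and Trav15-1-dv6-1 in 8. The 2150 effectors without a beta UMI had a Trav14 family share of 29.7% (26.6–32.9), a value that lies inside the interval of the other-beta effectors.

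The same beta class carried more of the P14 alpha family outside the blood effectors. Blood cells that failed the effector rule and had only Trbv13-3 reached 76.1% (73.0–79.0), and Trbv13-3 cells of the memory library that met the rule reached 93.4% (88.7–96.5). The interval of the blood Trbv13-3 effectors did not overlap either of these. Other-beta cells of the blood that failed the rule had 40.2% (30.4–50.65). Among cells with other beta segments that failed the rule, the share was 58.1% in the TdLN and 85.3% in the memory library.

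Trdc separated the sets further. Trbv13-3 effectors had 201 Trdc UMIs, or 261 CPM, and other-beta effectors 76, or 38.3 CPM, a ratio of 6.83 (5.22–9.01). A Trdc UMI was seen in 31 of 123 cells (25.2%, 17.8–33.8) and in 12 of 325 cells (3.69%, 1.92–6.36). With each cell thinned to 4000 UMIs the shares were 25.2% and 3.28%, leaving out 8 and 20 shallower cells. Other Trbv13-3 cells held more: 387 CPM in the blood cells that failed the rule, with a UMI in 68.1% of cells (53.5% after thinning), and 386.5 CPM in memory cells that met it, with 66.2% (48.1% after thinning). The remaining genes on the list of gamma delta T cell markers summed to 87.1 CPM in Trbv13-3 effectors and 75.0 CPM in other-beta effectors, with Sox13 at 0 in both. Tcrg-C2 (40.3 and 43.8 CPM) and Trgv2 (16.9 and 25.2 CPM) were lower in Trbv13-3 effectors. Tcrg-C4 (14.3 and 3.02 CPM), Tcrg-C1 (7.80 and 2.02 CPM) and Trdv4 (7.80 and 1.01 CPM) were higher, on at most 11 UMIs in a set.

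**Figure D1:**
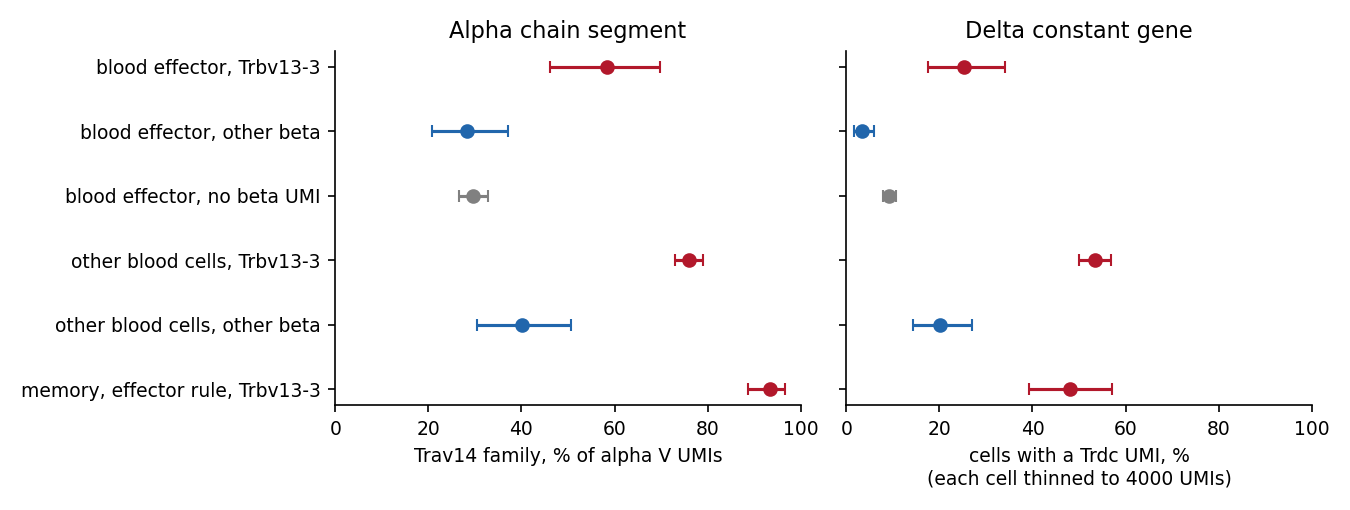
Left, share of alpha V UMIs from the Trav14 family, and right, share of cells with a Trdc UMI after thinning each cell to 4000 UMIs, for 6 sets of cells (red, only Trbv13-3; blue, only other beta segments; grey, no beta UMI); points are shares and bars 95% Clopper-Pearson intervals. Trbv13-3 effectors of the blood (58.3% and 25.2%) lie above other-beta effectors (28.3% and 3.28%) and below the other Trbv13-3 cells on both axes.

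Of the alpha and beta constant genes, Trbc1 alone had an interval of the ratio that did not reach 1. Trac, the alpha constant gene, was at 632 and 647 CPM and Trbc2 at 2446 and 2429 CPM. Trbc1, the first of the beta constant genes, was at 328 CPM in Trbv13-3 effectors and 546 CPM in other-beta effectors, a ratio of 0.600 (0.521–0.689). It had a UMI in 39.1% and 38.7% of thinned cells. Of its 1085 UMIs in other-beta effectors 124 came from 1 cell, and the highest number in a Trbv13-3 effector was 19.

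How far a UMI marks its cell was examined in cells that should lack these transcripts. Only the TdLN library held cells with at least 3 B cell marker UMIs and no CD3 UMI. None of these 39 B cells had a Trbv13-3 UMI, which allows a share of up to 7.69%, and 4 had a Trdc UMI (10.3%, 2.87–24.2), at a median of 4593 UMIs per cell. In blood, 149 of the 2624 effector-rule cells (5.68%, 4.82–6.63) had a Trbv13-3 UMI at a median of 5208.5 UMIs, against 887 of 3028 other cells (29.3%, 27.7–30.95) at 11737 UMIs. The Trdc share of other-beta effectors (3.69%) lay under that of these few B cells of another library. Their 76 Trdc UMIs came from 12 effectors, with up to 24 in a cell. Those 12 cells had 3 of 4 alpha V UMIs from the Trav14 family (75.0%, 19.4–99.4), against 26.8% of 123 in the other-beta effectors without Trdc. That interval holds the lower value, and whether the 3.69% is background was not tested. Effectors without a beta UMI had a share of 10.2%, close to that of the B cells. Whether that share is background was not tested either. The cells that held Trdc differed from the rest in their alpha chains and in Il7r, as given further on. The part that free RNA or droplets with 2 cells had in the Trbv13-3 set was not tested.

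The other-beta effectors used few segments. Of 16 other Trbv genes seen, Trbv15 was in 82 cells (25.2%, 20.6–30.3), Trbv12-2 in 52, Trbv19 in 49, Trbv29 in 44, Trbv13-2 in 43, Trbv16 in 23 and Trbv1 in 21. These 7 covered 303 of the 325 cells, and 314 cells had only 1 segment. Some pairs recurred among cells with an alpha V UMI: Trbv15 with Trav15-1-dv6-1 in 7 of 18, Trbv12-2 with Trav16 in 7 of 20, and Trbv29 with Trav16 in 7 and Trav7-5 in 6 of 19. The Trav14 family share ran from 9.09% of 33 alpha UMIs in Trbv29 cells to 52.4% of 21 in Trbv15 cells. It was under the 58.3% of the Trbv13-3 effectors for all 7 segments. The interval in Trbv15 cells (29.8–74.3) held that value, as did those in Trbv19, Trbv16 and Trbv1 cells, the last 2 with 5 and 4 alpha UMIs. Among the 7 segments, Trdc was seen in at most 8.89% of cells (4 of 45 with Trbv12-2 alone). It was seen in none of 43 Trbv29 cells, which allows up to 6.98%. It was seen in 4 of the 22 cells with rarer segments.

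The 6 effector genes chose the cells, so their levels are a description. Trbv13-3 effectors had a median of 4 of the 6 detected and other-beta effectors 5. All 6 genes were detected in 16 of 123 cells (13.01%) against 73 of 325 (22.5%), and the minimum of 2 in 20 (16.3%) and 41 (12.6%). Gzma, the most abundant granzyme here, was at 2855 CPM in Trbv13-3 effectors and 3749 CPM in other-beta effectors. Zeb2, a repressor of transcription tied to terminal differentiation, was at 276 and 380 CPM, and Klrg1, an inhibitory lectin-like receptor, at 157 and 211 CPM. Cx3cr1, the fractalkine receptor, was at 295 and 366 CPM, Gzmb at 454 and 519 CPM, and S1pr5, a receptor for egress into blood, at 105 and 129 CPM.

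**Figure D2:**
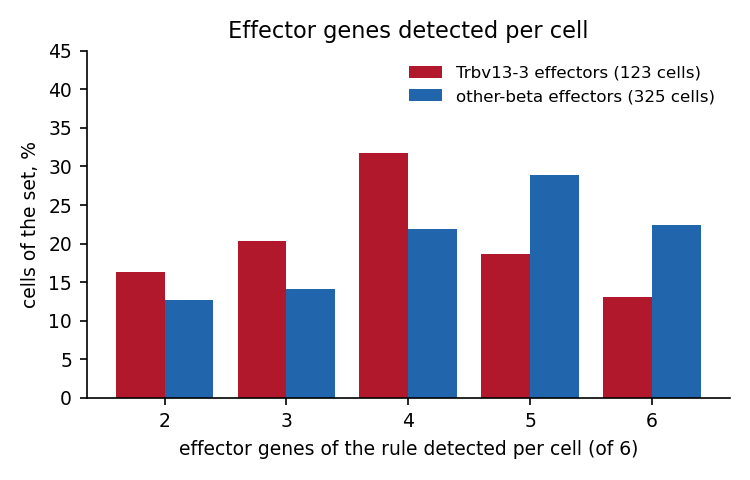
Share of the cells of each set (vertical axis, %) by how many of the 6 effector genes had a UMI (horizontal axis); red, 123 Trbv13-3 effectors, blue, 325 other-beta effectors. The commonest number was 4 in Trbv13-3 effectors (31.7% of cells) and 5 in other-beta effectors (28.9%); cells with under 2 are absent because the rule left them out.

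At the edge of the rule the P14 readouts were as follows. The 34 Trbv13-3 cells just outside it (1 effector gene, no Ccr7 UMI) had 69.2% Trav14 family UMIs and a Trdc UMI in 17 cells, and the 20 just inside (2 effector genes) had 76.2% and 9 cells. The 78 with 4 or more effector genes had 48.6% (31.9–65.6) and 17.9% of cells. These 2 sets also differed in depth, with medians of 5162 UMIs per cell in the 78 and 8710 in the 20. The Trav14 intervals overlapped (52.8–91.8 in the 20), and the Trdc shares are not thinned, so no order is read from them. Among other-beta cells, the 36 just outside had 41.2% of 17 alpha UMIs and Trdc in 5.56% of cells, the 41 just inside 17.6% and 2.44%, and the 238 with 4 or more effector genes 25.5% and 4.20%. Gzma reached 4731 and 5015 CPM in the cells with 4 or more effector genes, against 177 and 162 CPM in those with 2.

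Across the genes tested, with the 6 effector genes among them, the sets were much alike. Of 2266 genes with a mean of at least 50 CPM and at least 10 counts, 0 (0.0%) were at least 2-fold higher in Trbv13-3 effectors and 1 (0.0441%), Stmn1, was at least 2-fold lower, in each case with an interval of the ratio that did not reach 1. With no minimum fold, the interval lay above 1 for 140 genes (6.18%) and below 1 for 174 (7.68%). Of the 174, 5 were effector genes that the rule had used. The 5th and 95th percentiles of the ratio were 0.740 and 1.24. Of the genes above 1, 67 were ribosomal protein genes, of 82 tested, and 66 were neither ribosomal nor mitochondrial. In cells with at least 4 effector genes the interval lay above 1 for 94 and below 1 for 92 of 2346 genes. After thinning each cell to 4000 UMIs it did so for 113 and 95 of 2281. Counts of list members under these settings, given below, are to be read beside these numbers.

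**Figure D3:**
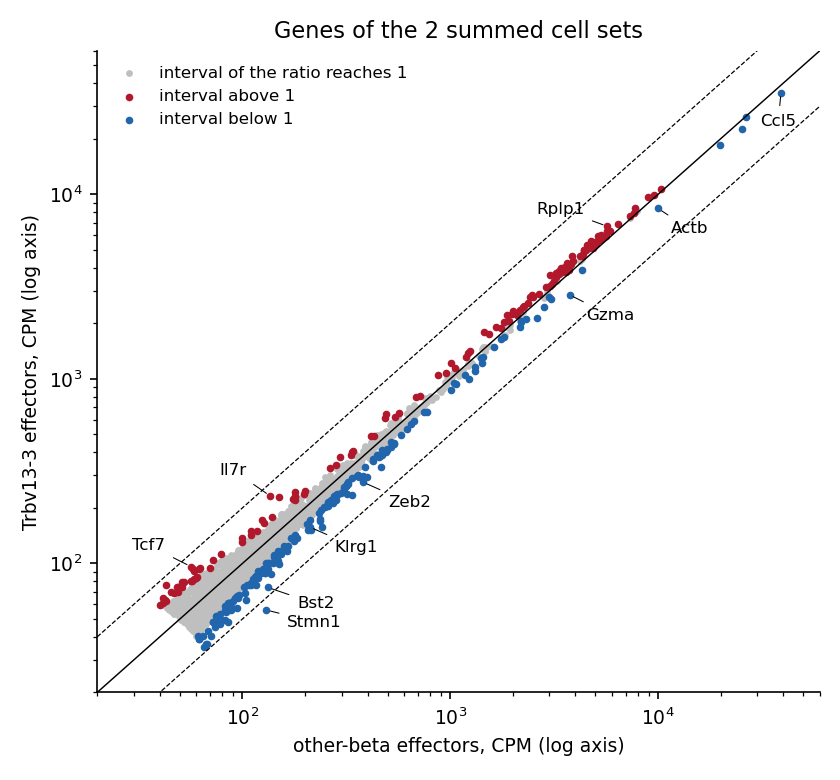
CPM of the 2266 genes tested in other-beta effectors (horizontal) and Trbv13-3 effectors (vertical), log axes, 1 point per gene; red and blue, 95% interval of the ratio above or below 1; solid line, equal levels; dashed lines, 2-fold. Points follow the solid line, and Stmn1 is the only coloured point beyond a dashed line.

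A few genes of memory and stem-like T cells were higher in Trbv13-3 effectors, in a pattern that depended on which cells were kept. Of the 15 genes on the stem and memory list 10 were tested, with a median log2 ratio of 0.28 against −0.05 over all genes. Of the 10, 4 had an interval above 1 and 1 below, against 6.18% and 7.68% over all genes. In cells with at least 4 effector genes 1 of the 10 lay above 1 and the median was 0.025. After thinning to 4000 UMIs 1 lay above and 1 below, with a median of 0.14. With an alpha chain in accord with the beta class, 4 of 11 lay above 1 and 0 below, with a median of 0.59. Trdc or Trav14 in Trbv13-3 cells and neither in the others gave 6 of 10 above and 1 below, with a median of 0.56. With at least 2 beta V UMIs 3 of 11 lay above and 1 below, with a median of 0.41. These last settings left 22 and 63, 47 and 287, and 12 and 43 cells. Il7r, the interleukin-7 receptor that sustains memory cells, had the largest ratio among the named genes at 1.72 (1.41–2.08), at 233 CPM in Trbv13-3 effectors and 135 CPM in other-beta effectors. Tcf7, which encodes TCF-1, a transcription factor of stem-like T cells, was at 96.2 and 56.4 CPM, a ratio of 1.71 (1.255–2.31). With other cell types' marker-bearing cells left out, the interval of Tcf7 reached 1 at a log2 ratio of 0.50, and after thinning it did so at 0.37. Bcl2, which blocks cell death, was at 173 and 124 CPM (1.40, 1.12–1.73), and Cd27, a costimulatory receptor, at 130 and 99.2 CPM (1.31, 1.02–1.68). Klf2, a factor of quiescence and circulation, was the member below 1, at 1635 and 1760 CPM.

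Slamf6, a surface receptor of stem-like T cells, lay under the 50 CPM minimum and had a higher ratio than Il7r and Tcf7. It had 33 and 32 UMIs, or 42.9 and 16.1 CPM (2.66, 1.59–4.47). Blood Trbv13-3 cells that failed the effector rule had far more of each of these genes: 380 CPM of Il7r, 267 of Tcf7 and 105 of Slamf6. Levels in Trbv13-3 effectors thus lay between those of the 2 other sets.

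Genes of killing had few intervals off 1 when all cells of both sets were used, and more when the alpha chain had to match. Of 13 genes on the cytotoxic list 12 were tested, with a median log2 ratio of −0.12. Of these 0 had an interval above 1 and 2 below, against 6.18% and 7.68% over all genes. The 2 were Gzmk, a granzyme of less differentiated effectors, at 195 and 238 CPM, and Nkg7, a granule protein, at 2762 and 2979 CPM. With ribosomal and mitochondrial genes left out of the totals no interval lay below 1 and 1 lay above, so the sides of this list rested on the scaling. Requiring an alpha chain in accord with the beta class, which left 22 and 63 cells, put 7 of 11 tested members below 1. The median log2 ratio of the list was −0.54, against −0.12 over all genes, of which 162 of 2205 lay below 1. Requiring a Trdc or Trav14 UMI in Trbv13-3 cells and neither in the others put 5 of 11 below 1. The median was −0.32, against −0.08 over all genes, of which 228 of 2268 lay below 1. Prf1, or perforin, was at 200 and 240 CPM (0.834, 0.691–1.002) and Gzmm at 185 and 153 CPM (1.21, 0.984–1.48). Of the T-box factors, Tbx21 was at 57.2 and 78.1 CPM (0.733, 0.512–1.03) and Eomes at 33.8 and 47.3 CPM (0.714, 0.444–1.11). Ccl5, a chemokine that was the most abundant of the named transcripts, was at 35580 and 39050 CPM, a ratio of 0.911 (0.899–0.924).

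Several genes of the cytoskeleton and 2 integrin genes were lower in Trbv13-3 effectors. On the circulation list 10 genes were tested, 2 lay below 1 and 1 above. Its median log2 ratio was −0.04, against −0.05 over all genes, of which 7.68% lay below 1 and 6.18% above. In cells with at least 4 effector genes 1 member of this list lay on each side. Itga4, an integrin chain for entry into inflamed tissue, was at 334 and 464 CPM (0.721, 0.625–0.828) and its partner Itgb7 at 252 and 308 CPM, while Ccr2, a receptor for inflammatory chemokines, was at 221 and 179 CPM (1.23, 1.02–1.485). S1pr1, the egress receptor, was at 142 and 129 CPM with an interval that reached 1. On the cytoskeleton list 6 of 12 tested genes lay below 1 and 1 above. Tln1, which links integrins to actin, was at 235 and 337 CPM (0.699, 0.590–0.825), and Actb at 8390 and 9994 CPM. Of 13 tested S100, annexin and galectin genes 6 lay below 1 and 0 above, among them Lgals1 at 2137 and 2622 CPM (0.815, 0.770–0.8615) and Lgals3 at 242 and 299 CPM. The median log2 ratios of the cytoskeleton list and of this list were −0.08 and −0.17. With ribosomal and mitochondrial genes out of the totals these 2 lists had 4 and 5 members below 1. In cells with at least 4 effector genes they had 3 and 5, and after thinning 5 and 2.

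The receptor complex and antigen presentation had a few lower members each. Cd5, a brake on receptor signals, was at 57.2 and 94.2 CPM (0.608, 0.427–0.848) and its relative Cd6 at 49.4 and 82.6 CPM (0.598, 0.409–0.856). With Cd8a and Lat they were the 4 of 13 tested members of the CD3 and coreceptor list below 1, and 0 lay above. In cells with at least 4 effector genes 0 of the 13 lay below 1 and 1 above, and 1 lay below after thinning or at no more than 5% mitochondrial counts. Over all genes, 92 of 2346, 95 of 2281 and 149 of 2264 lay below 1 in these settings in turn. With all cells of both sets, 174 of 2266 (7.68%) did. On the list of MHC class I presentation 5 of 11 lay below 1, among them Psmb9, an immunoproteasome subunit, at 205 and 258 CPM, and Nlrc5, an activator of class I genes, at 39.0 and 61.9 CPM. The median log2 ratio of that list was −0.02 and changed sign to 0.05 with ribosomal and mitochondrial genes out of the totals. After thinning 2 of its members lay below 1. Among interferon-induced genes, Bst2, or tetherin, was at 74.1 and 132 CPM (0.560, 0.413–0.748) and Ifi27l2a at 644 and 493 CPM (1.31, 1.17–1.46), so the list of 8 tested genes had 1 on each side.

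Inhibitory receptor genes were scarce in both sets. Pdcd1, which encodes PD-1, had 7 and 15 UMIs (9.10 and 7.55 CPM), and Tox, a factor of exhausted cells, 14 and 43 UMIs (18.2 and 21.7 CPM). Lag3 had 3 and 27 UMIs, a ratio of 0.287 with a counting interval of 0.0557–0.932. Cxcr6, the tested member of that list, was at 203 and 248 CPM. The 14 other genes of that list lay under the minimum level.

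Among receptors shared with natural killer cells, Klre1 was at 222 and 176 CPM (1.27, 1.05–1.52) and Klrc1 at 360 and 425 CPM (0.848, 0.737–0.972). Klrd1, the partner of several such receptors, was at 719 and 669 CPM and Ly6c2, an activation marker, at 1953 and 1949 CPM, each with an interval that reached 1. Il18rap, a subunit of the interleukin-18 receptor, was at 152 and 207 CPM (0.735, 0.593–0.905), while its partner Il18r1 was at 220 and 209 CPM. The remaining high ratios by rule were Fam32a, Tsc22d3, Clec2d, Ptpn6, Ankrd12, Gpi1, Timm10b and Klf6, at 1.29 to 1.38. The remaining low ones were Pdia3, Ywhab, Ube2s, Rpa2, Snrpd1, Hist1h4d, Vcp, Kcnj8, Sf3b2 and Smc6, at 0.634 to 0.707.

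**Figure D4:**
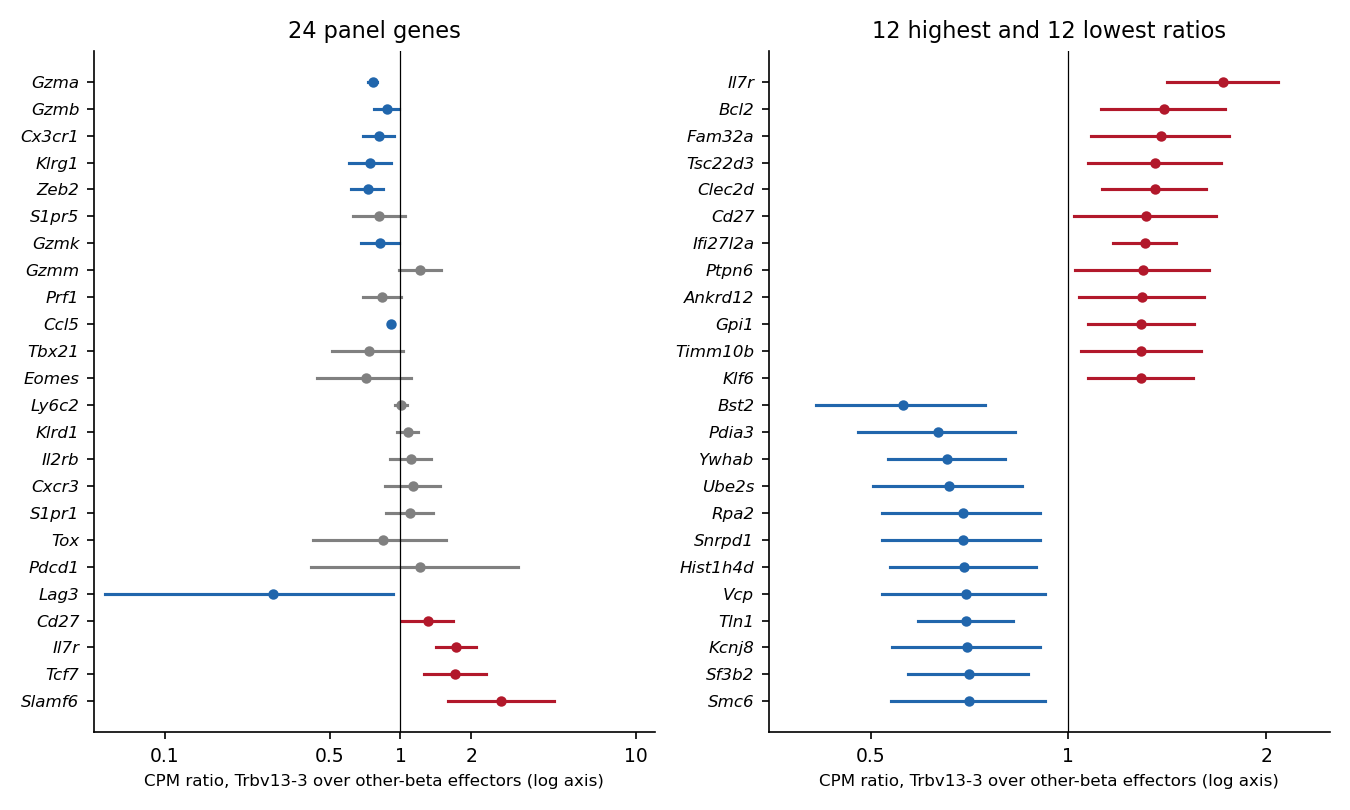
CPM ratio of Trbv13-3 over other-beta effectors (log axis) with its 95% interval for 24 panel genes (left) and for the 12 highest and 12 lowest ratios at a mean of at least 100 CPM (right); red, interval above 1; blue, below 1; grey, reaching 1. Il7r, Tcf7 and Slamf6 lie highest among the panel genes drawn, and 5 of the 6 genes of the effector rule have intervals below 1.

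The 1 call past 2-fold rested on few cells. Stmn1, a tubulin-binding protein of dividing cells, was at 55.9 and 130 CPM (0.429, 0.303–0.594). Of its 259 UMIs in other-beta effectors, 92 came from 3 cells with 56, 20 and 16 each. Those 3 cells were the only ones with at least 10 UMIs of Mki67, Top2a, Stmn1, Birc5 and Ube2c together. None of the 123 Trbv13-3 effectors reached that number, which allows up to 2.44%. Without the 3 cells no gene was at least 2-fold lower.

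Ribosomal protein genes leaned to the higher side in most of their members: 18 of the 20 listed had an interval above 1, with a median log2 ratio of 0.15. Rplp1 was at 6724 and 5672 CPM (1.185, 1.147–1.225). In Trbv13-3 cells that failed the effector rule Rplp1 was at 12870 CPM. In cells with at least 4 effector genes the median fell to 0.05 and 4 of the 20 lay above 1.

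Markers of other cell types moved with the sets for platelets. The 7 platelet markers summed to 39.0 CPM in Trbv13-3 effectors, where Gp1bb was at 0, and 103 CPM in other-beta effectors. Pf4 had 5 UMIs in 5 cells and 92 UMIs in 19 cells, of which 3 cells held 55. The B cell list was at 9.10 and 6.04 CPM, with Cd79a and Ms4a1 at 0 in both sets. The myeloid list was at 103 and 133 CPM, nearly all Cst3, with Csf1r, Cd14 and Csf3r at 0. The natural killer list was at 97.5 and 103 CPM, with Ncr1 at 0. Their part in the gene ratios was not tested beyond leaving out cells with at least 2 such UMIs, which left 104 and 250 cells.

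When the other-beta effectors were divided by segment, the genes that set them apart from Trbv13-3 effectors varied in how general the difference was. Segments with at least 20 cells of that segment alone numbered 7. They are not replicates, since cells with the same segment may descend from the same cell. Il7r lay between 91.5 CPM in Trbv19 cells and 167 CPM in Trbv13-2 cells, under the 233 CPM of Trbv13-3 effectors for all 7. Tcf7 ran from 0 UMIs in the 22 Trbv16 cells to 83.4 CPM in Trbv13-2 cells, under 96.2 CPM in each. Bst2 lay between 120 and 139 CPM, above 74.1 CPM in each. Counting intervals overlapped that of Trbv13-3 effectors for Il7r in Trbv13-2, Trbv16 and Trbv29 cells. For Tcf7 they overlapped in Trbv13-2, Trbv12-2, Trbv15 and Trbv1 cells. For Bst2 they overlapped in each segment, as in Trbv15 cells (91.8–155.5, against 56.15–96.05 in Trbv13-3 effectors).

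Gzma did not follow that pattern. It ran from 2687 CPM (2544–2836) in Trbv15 cells, under the 2855 CPM of Trbv13-3 effectors, to 5066 CPM (4776–5370) in Trbv29 cells, so the other-beta segments differed among themselves by more than the 2 sets did. Trbv13-2 cells, at 2985 CPM, were near Trbv13-3 effectors. Klrg1, Zeb2 and Cx3cr1 were above the level of Trbv13-3 effectors for all 7 segments, in some by less than counting error, as for Zeb2 in Trbv12-2 cells (281 CPM). In the 22 cells with rarer segments all 3 were lower than in Trbv13-3 effectors, with Klrg1 at 154 CPM. Klrg1 was highest in Trbv29 cells at 295 CPM and Trbv15 cells at 270 CPM. Stmn1 was at 525 CPM in the 20 Trbv1 cells and between 51.1 and 98.4 CPM in the 6 other segments.

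**Figure D5:**
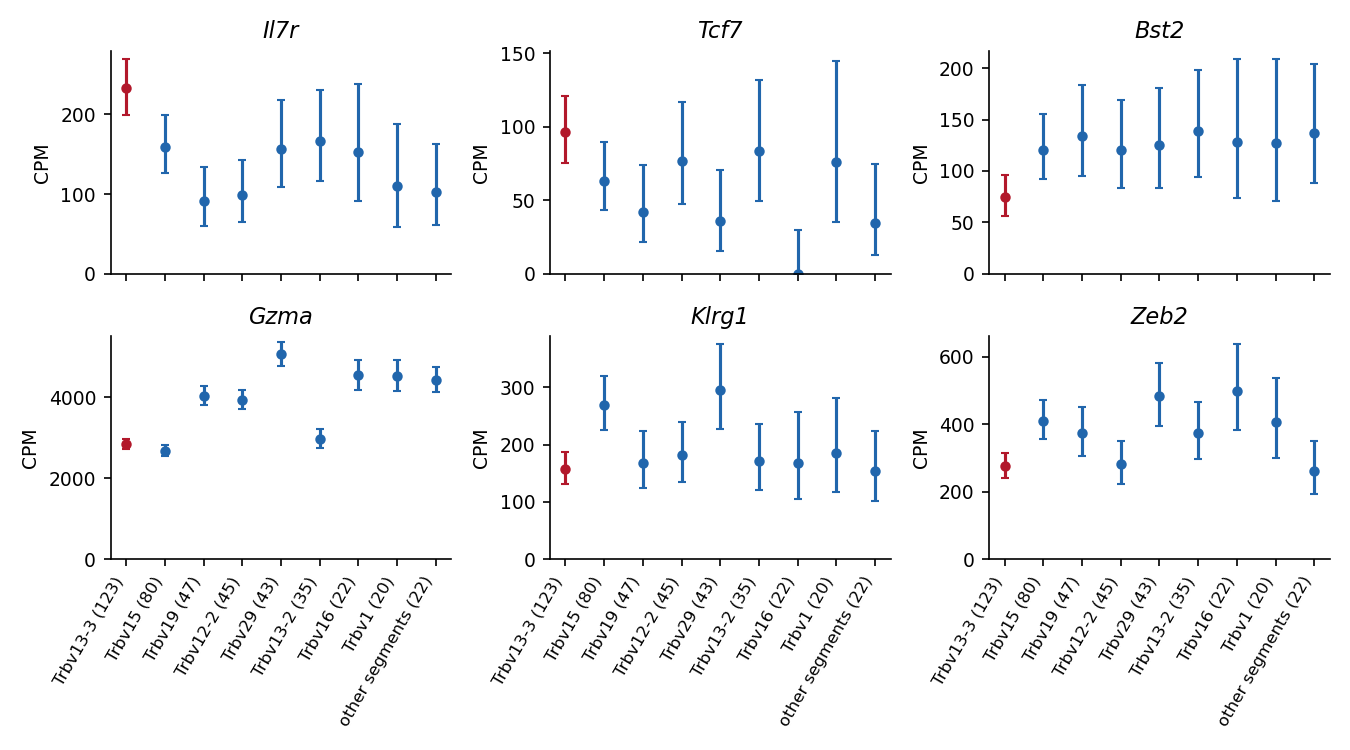
CPM with 95% Poisson intervals of 6 genes in Trbv13-3 effectors (red) and in other-beta effectors that had only the segment named (blue), with the number of cells in parentheses; the last point pools the rarer segments. By point, Il7r and Tcf7 are highest and Bst2 lowest in Trbv13-3 effectors, with intervals that overlap those of several segments. Gzma in Trbv15 and Trbv13-2 cells is near the Trbv13-3 level.

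The Trbv13-3 effectors were also divided by Trdc, a split made after the values were seen. The 31 cells with a Trdc UMI had 75.0% (53.3–90.2) Trav14 family UMIs of 24, a median of 3 effector genes and 5790 UMIs per cell. The 92 without had 24 of 48 (interval 35.2–64.8%), a median of 4 effector genes and 5504 UMIs. Of 2222 genes tested between them, 21 (0.945%) were at least 2-fold higher with Trdc and 46 (2.07%) at least 2-fold lower. In Trbv13-3 effectors with at least 4 effector genes the same split gave 52 and 39 genes. The larger set of effectors without a beta UMI, given further on, had 6 and 2 genes past 2-fold. How much of the counts here came from the small number of cells was not tested.

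Single genes differed between these cells in both directions. Tcf7 was at 157 CPM with Trdc and 70.4 CPM without (2.23, 1.37–3.61), Il7r at 301 and 204 CPM (1.475, 1.075–2.01) and Cd160, a receptor of natural killer and CD8 T cells, at 139 and 40.8 CPM (3.42, 1.93–6.18). Itgb1, an integrin chain, was at 392 and 232 CPM (1.69, 1.28–2.24). The effector rule used Klrg1, at 78.4 and 191 CPM (0.411, 0.234–0.682), and S1pr5, at 39.2 and 133 CPM (0.294, 0.129–0.589). Prf1, which it did not use, was at 113 and 237 CPM (0.478, 0.3005–0.732). Gzma was closer, at 2580 and 2972 CPM (0.868, 0.789–0.9545), and Gzmb (0.656–1.07), Tbx21 (0.357–1.59) and Eomes (0.165–1.525) had intervals that reached 1.

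The same split could be made in the 2150 effectors without a beta UMI, cells that took no part in the comparison of segments. Trdc was seen in 220 of them, which had 55.7% (44.7–66.3) Trav14 family UMIs of 88, against 26.7% (23.6–30.0) of 757 in the 1930 without. Il7r was at 298 and 125 CPM (2.38-fold), Itgb1 at 595 and 251 CPM (2.37-fold) and Tcf7 at 84.8 and 49.7 CPM (1.71-fold). Klrg1 was lower with Trdc here too, at 135 and 224 CPM (0.603, 0.514–0.7045). Gzma was on the opposite side, at 4905 and 4183 CPM (1.17), S1pr5 and Cd160 had intervals that reached 1, and Stmn1 was 2.07-fold higher with Trdc. Of 2284 genes, 6 (0.263%) were at least 2-fold higher and 2 (0.0876%) at least 2-fold lower.

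Set against blood cells of the same beta class that failed the rule, each effector set differed in more genes than from the other. The rule chose these groups, so this is a description, without the 6 effector genes and Ccr7. Trbv13-3 effectors had 176 of 1958 genes (8.99%) at least 2-fold higher and 21 (1.07%) at least 2-fold lower. Other-beta effectors had 122 of 2084 (5.85%) and 24 (1.15%). Ccl5 was at 3079 CPM in the failing Trbv13-3 cells and 11750 CPM in the failing other-beta cells, and Lgals1 at 203 and 602 CPM. The failing cells of both classes were deeper, with medians of 12310 and 10350 UMIs per cell.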

How the data were processed

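Single-cell 3′ RNA libraries (10x Genomics Chromium Next GEM) of sorted CD8 T cells were used, 1 each from PBMC, TdLN and memory. The authors deposited raw UMI counts per gene and barcode. The submitters' processing notes name Cell Ranger 3.1.0 and mm10. The 3 libraries held 6165, 7503 and 8321 barcodes with 49592338, 72062695 and 72283532 counts, and PBMC shared 17 barcode sequences with TdLN and 15 with memory. Counting at the 3′ end leaves few UMIs in V segments. Of 31053 genes, 30934 IDs matched GENCODE M21, which gave coordinates and sequences.

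Cells needed 500 genes or more and no more than 10% of counts from mitochondrial genes. Doublets were not called or removed. Counts were summed per cell set (Python 3.11.15, numpy 2.4.6) and divided by their total without 660 receptor and immunoglobulin genes, which held 0.4065% and 0.400% of counts. Intervals at 95% are exact Poisson for CPM, exact conditional binomial for ratios and Clopper-Pearson for shares (scipy 1.17.1); PCR and cell-to-cell variation are not covered. A gene was called at a mean of at least 50 CPM, at least 10 counts, at least 2-fold and an interval not reaching 1. A count of 0 was given the limit of 3 counts. On simulated Poisson counts with 2.5-fold and 5-fold changes in 200 genes, this calculation was tested under counting error alone. Named genes were the 12 highest and 12 lowest ratios at a mean of at least 100 CPM with intervals not reaching 1, without ribosomal, mitochondrial, predicted, haemoglobin and sex-linked genes, a panel of 25 genes, and up to 4 members of each of 30 lists; Trdc, the constant genes, Itgb1 and other list members were added after their values were seen. A few items are not reported here. The cell sets, members and lists were chosen with earlier results of these data known. Alternatives changed the effector rule, depth, beta and alpha classes, totals (with edgeR 4.0.16 TMM factors, R 4.3.3), filters and fold.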

Additional observations from a re-analysis of the deposited data

How the results depend on the processing

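The gene counts depended on set size and filters. The main values were 0 genes at least 2-fold higher and 1 lower; the higher count was also 0 under the settings not named next. With at least 4 of 6 effector genes (78 and 238 cells) there were 2 higher and 4 lower, and with cells thinned to 4000 UMIs 3 and 3. With at least 2 beta V UMIs (12 and 43 cells) there were 27 and 48, and with an alpha chain in accord (22 and 63 cells) 20 and 67. Totals without ribosomal and mitochondrial genes gave 1 and 3, a minimum of 20 CPM 17 and 31, and no CPM minimum 78 and 117. Of alternatives chosen after seeing the data, requiring Trdc or Trav14 in accord gave 6 and 14, a fold of 1.5 gave 15 and 29, and leaving out Trbv13-1 and Trbv13-2 cells gave 2 lower. The lower count was 2 at no more than 5% mitochondrial counts, and 0 with equal weight per cell, without cells with other cell types' markers, at a minimum of 100 CPM and without the 3 division-rich cells. The genes with intervals above and below 1 were 140 and 174, but 175 and 120 with TMM factors and 238 and 106 without ribosomal and mitochondrial genes in the totals. With at least 2 beta UMIs the Trav14 family share of other-beta effectors was 41.7%. Over 47 named genes there were 656 gene and setting pairs. In 519 the interval stayed on the same side of 1 or reached 1 as before, and for those that reached 1 direction was not checked. Where the main interval was off 1, 104 pairs kept direction with an interval that reached 1, and 14 changed sign. Where the main interval reached 1, it moved off 1 in the main direction in 17 pairs and in the opposite direction in 2. Settings that weighted cells kept the unweighted intervals. With at least 2 beta UMIs log2 ratios became −0.034 for Fam32a, −0.28 for Ifi27l2a, 0.49 for Hist1h4d and 0.14 for Vcp. With the alpha chain in accord they became −0.22 for Fam32a, −0.039 for Tsc22d3, −0.49 for Ankrd12, −0.51 for Timm10b and 0.67 for Hist1h4d. Hist1h4d was also 0.10 without cells with other cell types' markers, 0.14 without the 3 division-rich cells and 0.11 with Trdc or Trav14 in accord. With at least 4 effector genes Cx3cr1 was 0.037 and Ccl5 0.0052, and Il7r (0.46), Zeb2 (−0.165) and Klrg1 (−0.10) had intervals that reached 1. Causes were not tested, beyond the smaller numbers of cells given. No paired analysis was possible because each group had 1 library.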
